A study of Arabidopsis thaliana with 8 samples.

Results

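Clustered URI binding sites beside genes were examined in roots of Arabidopsis thaliana. They are the peaks of the authors' deposited table that have another peak on the same chromosome at a gap of 3000 bp or less and whose midpoint falls in no protein-coding gene yet has one within 1000 bp. This position rule, which uses no measured signal, was met by 417 of 2366 peaks. They fell into 286 multi-peak loci, which hold 667 peaks in all because a neighbour may itself lie inside a gene (101 peaks) or farther than 1000 bp from any gene (149 peaks).

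URI (bHLH121) belongs to the basic helix-loop-helix (bHLH) transcription factors and acts in the response to low iron (Fe). Proteins of this family bind DNA as dimers at short E-box elements, and a regulatory region can hold several such elements, so that 1 gene can carry more than 1 site of binding. Downstream of URI lie the Ib bHLH genes, whose products act with FIT to switch on Fe uptake, and genes for E3 ligases and peptides that tune the response.

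URI-bound chromatin was pulled down and sequenced (ChIP-seq) from roots of a complementation line of the uri mutant after 72 h of Fe sufficiency or Fe deficiency. For the complementing copy, the promoter, the tag and the number of independent lines are not given here. Each Fe condition has 3 URI ChIP libraries and 1 IgG control library, all from the same line, so every comparison is between Fe conditions. The authors' deposited table gives for each peak 1 mean concentration per Fe condition (log2 of normalised reads), the p-value with its false discovery rate (FDR), and no value per library. The spread between replicates is therefore known only through the p-value, library depths are unknown, no source states that the libraries came from separately grown plants, and the p-values could thus reflect technical spread alone. Reads below are 2 to the power of a deposited concentration, and a change is the log2 value under deficiency minus that under sufficiency. Where a standard error (SE) is given, it is the one implied by the deposited p-value under a normal approximation, for changes of at least 0.2 in size. It takes the p-values as centred on a change of 0, which they were not exactly. Changes of 0 at AT1G72840 and AT2G42350 had deposited p-values of 0.9 and 0.909, and a change of 0.1 at AT3G25720 had 0.985. The SE is therefore approximate, and may be too large for small positive changes and too small for small negative ones.

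The clustered peaks were of ordinary width and strength. Their median width was 783 bp in the authors' deposited table, against 734 bp for all peaks, and their median concentration was 3.72 (13.2 reads) against 3.61 (12.2 reads). In the authors' deposited table they ranged from 5.13 to 107 reads, and 1 of the 10 strongest peaks of the whole table was among them, the one beside AT3G17770. The weaker peaks set a limit: for 158 of the 417 the deposited FDR is 1, as it is for all peaks of at most 11.5 reads, which were left out of the authors' adjustment, and 259 had an adjusted FDR. All chromosomes carried such loci, from 39 on chromosome 2 to 79 on chromosome 1. The clustered peaks made up 14.4% of the peaks of chromosome 2 and 19.6% of those of chromosome 1.

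Most loci were pairs. Of the 286 loci, 216 held 2 peaks, 52 held 3, 14 held 4, 1 held 5 and 3 held 6. Their median span was 3166 bp, with a range from 915 to 12316 bp. In 83 loci every peak lay beside a gene by the rule, 93 loci had a peak with its midpoint inside a gene and 127 had one farther away. The gap between neighbours had a median of 950 bp (quartiles 411.5 and 1747.5 bp), and 18 of 343 neighbouring pairs with at least 1 clustered peak lay under 100 bp apart. In the median locus 59.1% of the summed reads lay in the strongest peak, which was a peak beside a gene in 188 loci. Whether peaks at short gaps are separate sites or parts of 1 broad site was not tested.

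Under Fe deficiency, 358 of the 417 clustered peaks (85.9%) had lower URI signal and 58 had higher signal in the authors' deposited table, whereas over all 2366 peaks 79.8% were lower and 19.9% higher. Their median change was -0.49, with quartiles of -0.75 and -0.22, beside -0.46 over all peaks. Peaks beside genes with no neighbour within 3000 bp, 970 in number, had a median of -0.47, and 79.5% of them were lower. These shares were not tested against each other, since the table holds no value per library. Relative to the median of all peaks the clustered peaks had a median change of -0.03, and 190 of the 417 lay above that median.

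By the FDR of the authors' deposited table, at a threshold of 0.05, 6 clustered peaks were higher under deficiency and none was lower. That is 2.32% of the 259 with an adjusted FDR, close to the 1.98% of all adjusted peaks that were called higher, and 0.0763% of all adjusted peaks were called lower. Before adjustment, at a deposited p under 0.05, 13 clustered peaks (3.12%) were higher and 41 (9.83%) lower, again near the 3.55% and 10.1% of all peaks. All 4 shares were thus near those of the whole table. The 6 calls depend on the rule: 2 were left with a gap of at most 1000 bp, and 0 when no base of a peak, rather than its midpoint, could lie in a gene. The 6 called peaks lay at bHLH38, bHLH39, bHLH100, BTS, OPT3 and AT1G74780, the last within 1500 bp of BTSL1, and all 6 had a listed Fe gene within 1500 bp. This is not particular to clustered peaks, since called peaks outside these loci also lay near listed genes, such as IRT1, FRO3 and IMA3. The share near a listed gene was not counted over all 26 peaks called higher. The lists were written with earlier results of these data known.

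**Figure D1:**
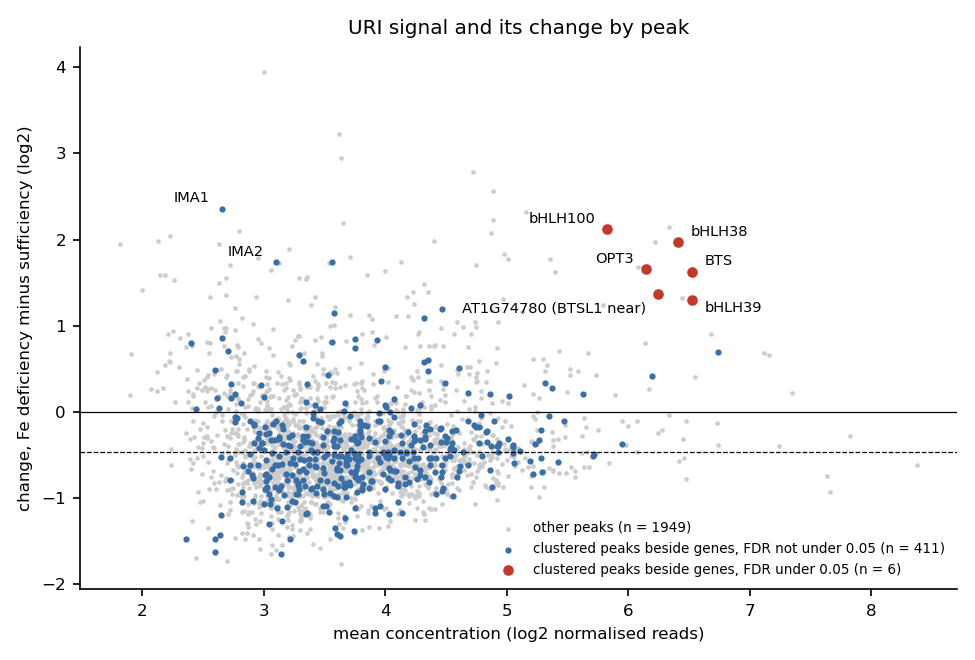
Each point is a peak of the authors' deposited table, with its mean concentration (log2 normalised reads) on the x axis and its change between Fe conditions (log2, deficiency minus sufficiency) on the y axis; the solid line is 0 and the dashed line the median of all peaks, -0.46. The 6 called clustered peaks (red) have changes from 1.3 to 2.12 at high concentration, while the other 411 (blue) lie mostly below 0.

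Of 58 genes of Fe homeostasis in 4 lists, 35 had a peak within 1500 bp in the authors' deposited table and 13 had one that belongs to these loci. Among transcription factors these were 4 of 14, among E3 ligases and peptides 4 of 6, and the rest were 5 of 27 transport and storage genes and 0 of 11 uptake and coumarin genes. For comparison, the loci hold 667 of all 2366 peaks. Genes with a called peak in a locus numbered 3, 2, 1 and 0 in these lists. Outside the loci, peaks called higher lay near the uptake genes IRT1, IRT2 and FRO3, and near IMA3, NRAMP4 and ZIF1. The 0 for uptake genes therefore holds for the loci only. Of the 14 peaks of the loci near the 13 listed genes, 13 had a change above 0 in the authors' deposited table, and the exception was the ferritin gene FER1. The lists hold genes known to respond to Fe and were written with earlier results of these data known, so this count is not independent evidence of a direction.

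The locus of the tandem genes bHLH38 and bHLH39 (chromosome 3, 21084789 to 21088453), which encode Ib bHLH factors of Fe uptake, was the single one with more than 1 called peak. Its first peak, beside bHLH38, rose from 34.3 to 135 reads (change 1.97, SE 0.281, FDR 1.63e-09 in the authors' deposited table). The second, 501 bp further on beside bHLH39, rose from 53.4 to 131 reads (change 1.3, SE 0.278, FDR 0.000265 in the authors' deposited table). Under sufficiency the second peak held more reads than the first, and under deficiency both held nearly the same number. Summed over the locus, URI signal went from 87.7 to 266 reads, a change of 1.60.

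At the other called loci the neighbour did not pass the FDR. A neighbour of at most 11.5 reads could not pass, because such peaks were left out of the authors' adjustment. This holds for the neighbours of the called peaks at bHLH100, AT1G74780, AT3G43660 and RPL16A, and for the peak beside IGMT5. Beside bHLH100, another Ib bHLH gene, a strong peak rose from 21.3 to 92.4 reads (change 2.12, SE 0.324, FDR 2.37e-08 in the authors' deposited table). Its neighbour inside AT2G41250, at a gap of 1858 bp, held 7.73 reads under sufficiency and 6.73 under deficiency (change -0.20, p = 0.768 in the authors' deposited table). The strong peak alone set the sum of this locus, which had a change of 1.77.

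BTS encodes an E3 ligase that holds the Fe response in check. The peak beside it (chromosome 3, 6272150 to 6274345) rose from 44.9 to 139 reads (change 1.63, SE 0.276, FDR 7.58e-07 in the authors' deposited table). A peak 1842 bp away in the same intergenic space, nearest to AT3G18282, held 17.8 and 17.6 reads (change -0.01, p = 0.865 in the authors' deposited table). The peak nearest to AT1G74780, within 1500 bp of the related ligase gene BTSL1, rose from 42.5 to 110 reads, rounded from 109.9 (change 1.37, SE 0.260, FDR 1.62e-05 in the authors' deposited table). Its weak neighbour inside AT1G74790 had 10.3 and 6.28 reads (change -0.72, SE 0.559, p = 0.198 in the authors' deposited table).

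OPT3 encodes a transporter that loads Fe into the phloem. The peak beside it (chromosome 4, 9249925 to 9251119) rose from 34.1 to 108 reads (change 1.66, SE 0.285, FDR 8.21e-07 in the authors' deposited table). The next peak, 2503 bp away in the same intergenic space and beside AT4G16380, had 18.0 reads under sufficiency and 11.2 under deficiency (change -0.70, SE 0.438, p = 0.11 in the authors' deposited table). This was the largest difference among the 343 neighbouring pairs with a clustered peak, 2.36 with a combined SE of 0.522.

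In 4 further loci the called peak was the neighbour and not the peak beside a gene. Between IGMT5, an indole glucosinolate methyltransferase gene, and the vacuolar transporter-like gene VTL2 (AT1G76800), the middle of 3 peaks rose from 10.4 to 48.8 reads (change 2.23, SE 0.380, FDR 7.58e-07 in the authors' deposited table). The peak beside IGMT5 had 7.01 and 8.75 reads (change 0.31, p = 0.759 in the authors' deposited table), and the one inside VTL2 had 7.78 and 15.6 reads (change 1.0, SE 0.496, p = 0.0437, FDR 0.269 in the authors' deposited table). All 3 peaks had values above 0, the only locus of 3 or more peaks where this was so.

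The called peak inside the ribosomal protein gene RPL16A rose from 14.6 to 49.9 reads (change 1.77, FDR 0.000311 in the authors' deposited table). Its neighbours near AT2G42760 had changes of -0.40 inside the gene (p = 0.456) and -0.83 beside it (p = 0.104) in the authors' deposited table. The 2 peaks at AT3G08490 lie 141 bp apart in the same intergenic space. The one farther from the gene rose from 12.6 to 41.4 reads (change 1.70, SE 0.360, FDR 0.000233 in the authors' deposited table), whereas the stronger one beside the gene held 35.3 and 44.6 reads (change 0.34, SE 0.301, p = 0.258 in the authors' deposited table). Inside AT3G43660 the called peak rose from 21.7 to 48.5 reads (change 1.16, FDR 0.0145 in the authors' deposited table), and its neighbour beside AT3G43670 had 11.3 and 10.6 reads (change -0.10, p = 0.81 in the authors' deposited table). Over the 8 neighbouring pairs that join a called peak to a clustered one or hold both, 1 had both peaks called and 5 had opposite signs. Neighbours of at most 11.5 reads could not be called. Among the opposite signs, the neighbours at BTS (-0.01), AT3G43660 (-0.10) and bHLH100 (-0.20) had changes near 0, above the median of all peaks (-0.46). Those at AT1G74780 (-0.72) and OPT3 (-0.70) lay below that median.

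**Figure D2:**
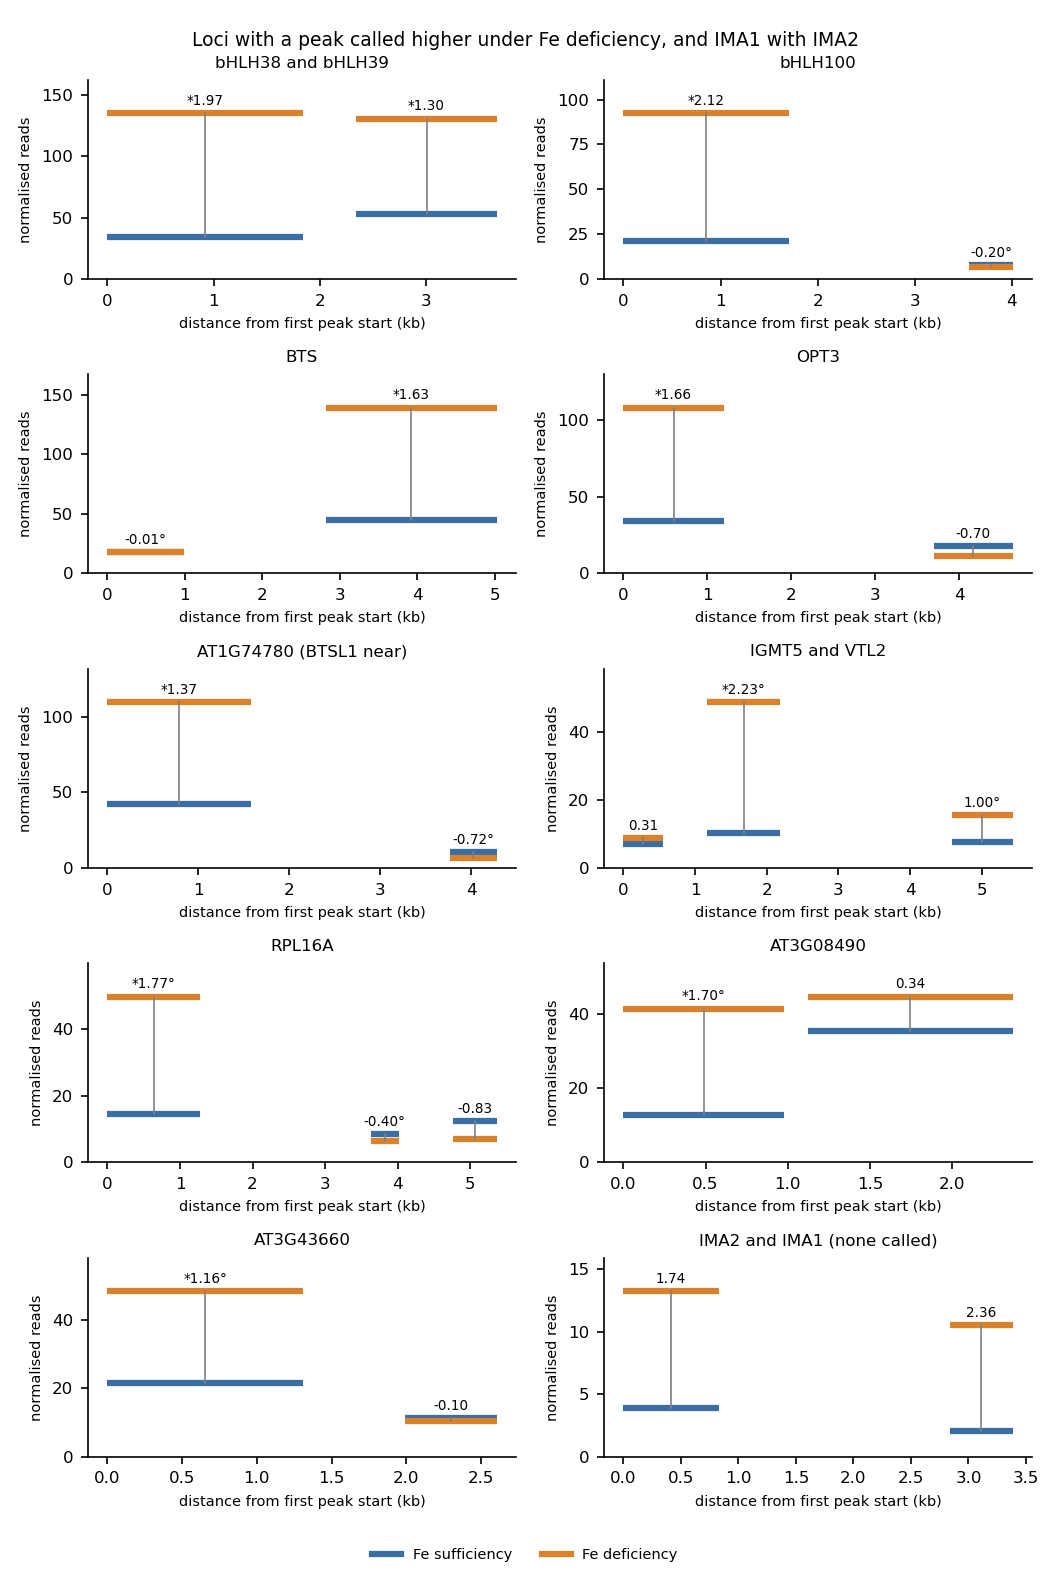
Each panel is a locus, with distance from the start of its first peak (kb) on the x axis and normalised reads on the y axis; bars span a peak's width at its mean under Fe sufficiency (blue) or deficiency (orange), with no error shown because the table holds none. Numbers are changes (log2), * marks an FDR under 0.05 and a degree sign a peak that is not beside a gene by the rule; both peaks are called only at bHLH38 and bHLH39 among these 10 loci.

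A pair without a call had the largest change summed over a locus. IMA1 (AT1G47400) and IMA2 (AT1G47395) encode small peptides that promote Fe uptake, and their genes lie in tandem with a peak beside each. The IMA2 peak had 3.94 reads under sufficiency and 13.3 under deficiency (change 1.74, SE 0.648, p = 0.00724 in the authors' deposited table). The other peak, 2015 bp away beside IMA1, had 2.06 and 10.6 reads (change 2.36, SE 0.704, p = 0.000808 in the authors' deposited table). The summed change was 1.99, and the FDR of both peaks is 1 because they fall among the weak peaks left out of the adjustment.

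The remaining loci near genes of the Fe lists had smaller values. At VTL1 (AT1G21140), a vacuolar transporter-like gene, the 2 peaks had changes of 0.35 (SE 0.342, FDR 0.493) and 0.60 (SE 0.412, FDR 0.376) in the authors' deposited table. At YSL3, a transporter of metal complexes, the peak beside the gene had 0.19 (FDR 0.775) and its neighbour near AT5G53540 had 0.03 (FDR 0.979) in the authors' deposited table. The bHLH11 gene, which encodes a negative regulator of Fe homeostasis, had within 1500 bp the last of 3 peaks, with a change of 0.68 (p = 0.185), while the other 2, nearest to J11 and AT4G36050, had -0.59 (p = 0.248) and -0.29 (p = 0.416) in the authors' deposited table. At FER1, which encodes plastid ferritin, the very strong peak inside the gene had 251 and 150.1 reads (change -0.74, SE 0.423, FDR 0.327 in the authors' deposited table). Its neighbour beside TBL35, 802 bp away, had 15.7 and 8.69 reads (change -0.86, SE 0.516, FDR 0.342 in the authors' deposited table), so both values leaned the same way without passing.

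By summed reads the FER1 locus was the second strongest of the 286. The first was AT3G56360, where a peak inside the gene with 249 reads under sufficiency and 206.5 under deficiency (change -0.28, FDR 0.635 in the authors' deposited table) had a neighbour beside the gene with 15.1 and 9.58 reads (change -0.67, FDR 0.382 in the authors' deposited table). bHLH38 with bHLH39 came next. Of the rest, the LBD37 locus is described below, and at BRG3, an E3 ligase gene, 2 broad peaks farther from genes had changes of -0.11 and 0.27 while the weak peak beside AT3G12930 had 0.21 (p = 0.853 in the authors' deposited table). At ERF4, an ethylene response factor gene, the broad peak of 105 and 72.0 reads had a change of -0.54 (p = 0.0317, FDR 0.251 in the authors' deposited table), and the peaks inside ERF4 and beside AT3G15200 had 0.17 and 0.28. GID1B, a gibberellin receptor gene, had 2 peaks with changes of -0.13 and -0.45 (FDR 0.711 and 0.395 in the authors' deposited table). The strongest of the 417 clustered peaks was that of AT3G17770, with 81.6 and 132 reads (change 0.70, SE 0.292, p = 0.0164, FDR 0.22 in the authors' deposited table). Its neighbour beside AT3G17780, 865 bp away, had 21.6 and 18.5 reads (change -0.22, SE 0.347 in the authors' deposited table).

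Of the 286 loci, 18 held 4 or more peaks, and 40 of their 79 peaks lay beside a gene by the rule. On chromosome 1, a locus nearest to GATL3, a galacturonosyltransferase-like gene, and RAV1, an AP2/B3 transcription factor gene, held 6 peaks over 9794 bp (4532666 to 4542460). Only 1 of these lay beside a gene by the rule, and 5 lay farther than 1000 bp from any gene. All 6 had lower values under deficiency, from -0.95 to -0.20, and 2 of them had p-values under 0.05 in the authors' deposited table (0.0181 and 0.0277, each without passing the FDR). A second locus of 4 peaks at RTFL17, a gene for a small growth peptide, and GATL3 ended 3472 bp before it, just past the gap limit. Its 3 peaks beside genes had 30.1, 27.3 and 18.4 reads under sufficiency and 18.6, 19.0 and 13.2 reads under deficiency (changes -0.69, -0.51 and -0.48 in the authors' deposited table). The last and weakest, inside GATL3, had 6.11 and 7.11 reads (change 0.22, p = 0.787 in the authors' deposited table). Together these loci put 10 peaks along the stretch, 9 of them with values below 0.

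HB16, a homeodomain-leucine zipper transcription factor gene, lay in an array of 6 peaks over 12030 bp on chromosome 4 (18564573 to 18576603). Every peak had a value below 0, from -0.86 to -0.14, and the strongest, beside HB16, had 27.7 and 16.4 reads (change -0.75, SE 0.656, FDR 0.446 in the authors' deposited table). The summed change was -0.67. LBD37, a repressor gene of the nitrogen response, had the third array of 6 peaks, over 11731 bp on chromosome 5 up to NPY3. One broad peak far from genes held 97.0 and 77.7 reads (change -0.31, FDR 0.432 in the authors' deposited table), and the other 5 held between 5.66 and 21.0 reads in either condition. Their changes ran from -0.90 beside NPY3 to 0.03 inside LBD37, neither passing the FDR in the authors' deposited table.

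The array of 5 peaks, from AT5G01800 over the protein kinase gene SR1 to SAUR21, had the longest span, 12316 bp, with changes from -0.67 to -0.03. Among the arrays of 4 peaks, that over the tandem cold-response genes CBF2, DREB1A (also called CBF3) and CBF1 had a peak beside each gene and 1 inside DREB1A. In chromosome order their reads went from 14.9 to 7.73, from 16.3 to 10.1, from 11.1 to 7.89 and from 21.1 to 17.0, with changes of -0.95, -0.70, -0.49 and -0.31 and p-values from 0.0615 to 0.408 in the authors' deposited table. All 4 peaks were lower without passing the FDR, and any pair of them differed by less than 2 combined SE. The peak beside CBF2 and the one inside DREB1A held at most 11.5 reads on average and so could not pass. The other arrays of 4 peaks in which every value was below 0 lay at AT1G53620 (summed change -0.78), MLO12 (-0.76), AT5G64120 (-0.68), PIP1B, an aquaporin gene (-0.51), bHLH093 with GTE7 (-0.40), AT2G22426 (-0.39) and AT3G07350 with PUB9 (-0.35). Those with 1 value above 0 lay at PCL1, a clock gene also called LUX (-0.47), PP2CA, a phosphatase gene of abscisic acid signalling (-0.38), SCL8 with AT5G52500 (-0.33), AT1G21000 (-0.20) and ORG1 with GLT1 (-0.18). Over all 18 loci of 4 or more peaks, 72 of 79 peaks had lower values, beside 79.8% of all peaks. A deposited p under 0.05 was found for 6 of the 79, all of them lower, beside 10.1% of all peaks that were lower at that p. None passed the FDR, which peaks of at most 11.5 reads could not. Neither count was tested against the other peaks.

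**Figure D3:**
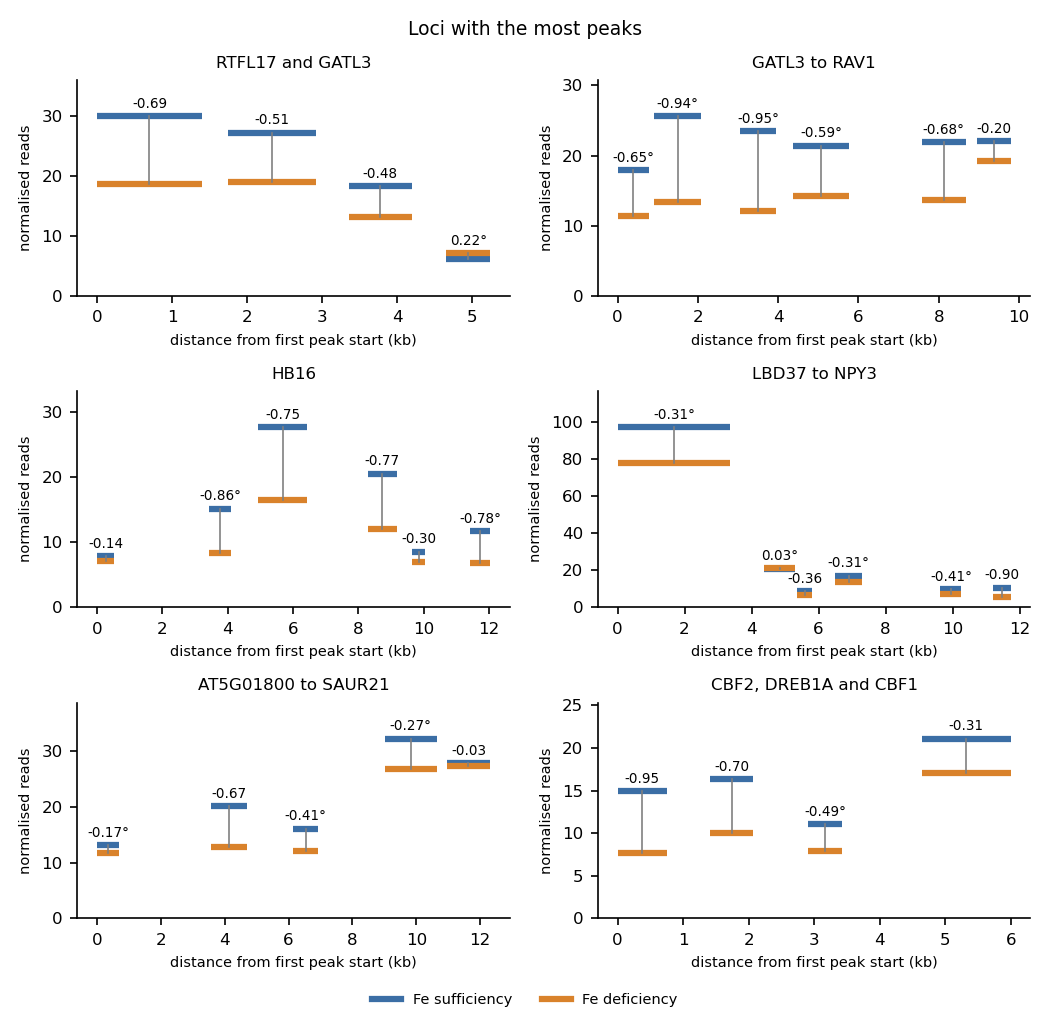
Peaks of the 6 named arrays, with distance from the start of the first peak (kb) on the x axis and normalised reads on the y axis; bars span each peak at its mean under Fe sufficiency (blue) or deficiency (orange), with no error shown because the table holds none. Numbers are changes (log2) and a degree sign marks a peak that is not beside a gene by the rule; 9 of 10 peaks from RTFL17 to RAV1 and all peaks at HB16 and the CBF genes are lower under deficiency.

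In the 52 loci of 3 peaks, 125 of 156 peaks had lower values, close to the 79.8% of all peaks, and the summed change was below 0 in 42 of the 52. In 31 of the 52 every value was below 0, in 18 the signs were mixed, in 1 (IGMT5) all were above 0, and the loci of NF-YA3 and AT1G80610 held a value of 0.00 with no opposed signs. Transcription factor genes with 3 lower peaks included KNAT3, a homeobox gene (summed change -0.67), WRKY11 with HCF153 (-0.89), WRKY29 (-0.85), WRKY47 with CRK (-0.61), NAC003 with NAC004 (-0.23), MYBR1 (-0.27), LBD18 with AHL22 (-0.71) and GIK with AT2G35260 (-0.61). ARR4 and ZFP5, a response regulator and a zinc finger gene, shared 3 peaks with a summed change of -0.51, and AOX1A, the alternative oxidase gene, shared 3 with the clock gene TIC (-0.64). Hormone, signalling and metabolic genes in this group were LOG7 (-0.32), RHA2B (-0.41), AUF1 (-0.66), BT2 (-0.45), RING, also called BOI (-0.45), ACR12 (-0.74), SIM (-0.15), MIPS1 (-0.46) and TPS10 (-0.20). The rest, named by their strongest peak or its gene, were AT1G25550 (-0.92), PLP9 with AT3G63210 (-0.86), AT3G14840 (-0.84), AT1G49500 (-0.70), AT1G14340 (-0.67), AT1G30690 (-0.60), CENP-C with AT1G15670 (-0.59), AT4G15610 (-0.58), AT5G57150 (-0.46), AT1G68670 (-0.40), AT4G33980 with EMB2758 (-0.38) and AT5G11090 (-0.32).

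Among the 18 mixed loci the summed change ran from -0.57 at WRKY17 to 0.84 at RPL16A. HB-2, a homeodomain-leucine zipper gene of shade responses, had the widest spread of those without a call. Its far peak held 10.3 reads under sufficiency and 27.1 under deficiency (change 1.39, p = 0.00451, FDR 0.121 in the authors' deposited table), while the peak beside the gene held 12.7 and 6.59 reads (change -0.95, p = 0.0967 in the authors' deposited table). The related genes HAT2 (summed change 0.28), HB-1 (-0.40) and HB5 (-0.31) also lay in mixed loci. The others were AT1G21920 (-0.55), ERF4 (-0.24), UMAMIT40 with SWEET8 (-0.23), AT5G01720 with SCAR4 (-0.21), ATXRCC1 (-0.18), AT5G20700 with BGAL7 (-0.15), J11 with AT4G36050 (-0.09), APX1 with ATMPK13 (0.05), UGT71C1 with OTP81 (0.07), BRG3 (0.09), ABR1 with CESA6 (0.13) and WES1 (0.15). At AT1G80610 the summed change was 0.13 and at NF-YA3 -0.39.

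Across all 286 loci, 202 had only lower values, 15 only higher values and 66 mixed ones, and the median of the summed changes was -0.46. The 15 loci with higher values throughout were those of bHLH38, IMA1, VTL1, YSL3, IGMT5 and AT3G08490, described above, and 9 others with no called peak. In 3 of these 9 a peak had a deposited p under 0.05 and an adjusted FDR. They were GID1A, another gibberellin receptor gene (changes 1.09, p = 0.0161, and 0.31, p = 0.552), AT5G02580 (1.19, p = 0.0086, and 0.21, p = 0.616) and WRKY59 with CYP96A5 (0.99, p = 0.0109, and 0.12, p = 0.94) in the authors' deposited table. The remaining 6 were LBD41, SHOT1, PLS with WRKY13, NAC084, BS1 with AT1G74490, and AT5G07020 with AT5G07030.

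The second question was whether neighbouring peaks change alike. Of the 343 neighbouring pairs with at least 1 clustered peak, 277 (80.8%) had changes of the same sign, 256 of them both lower and 21 both higher, and 64 had opposite signs. Peaks that follow each other on a chromosome at a gap over 3000 bp had the same sign in 66.5% of 1885 pairs. Relative to the median of all peaks, however, the same-sign share was 51.9% for neighbours and 50.1% for the distant pairs. The share of peaks below 0 was 84.3% among the neighbours and 78.7% among the distant pairs.

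In size, neighbours differed by a median of 0.41 (log2), against 0.47 for distant pairs, and their changes had a Spearman correlation of 0.20 over the 343 pairs against 0.03 over the 1885. This weak correlation is a description across peaks, which all come from the same libraries in both sets of pairs, and its source was not tested. Mean concentrations of neighbours were hardly related (Spearman correlation of 0.08). For the 112 pairs in which both peaks were clustered peaks beside a gene, the same-sign share was 81.2%, the median difference 0.41 and the correlation 0.21. Without the 9 pairs of loci that hold a called peak, which leaves 334, the correlation was 0.18.

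The median difference between neighbours followed no steady order with the gap. It was 0.39 at gaps up to 300 bp (69 pairs), 0.35 from 300 to 1000 bp (107 pairs), 0.41 from 1000 to 2000 bp (101 pairs) and 0.49 from 2000 to 3000 bp (66 pairs). Between 3000 and 10000 bp, outside the loci, the median difference was 0.46 (353 pairs). In the same order of gaps the correlation of changes was 0.24, 0.21, 0.22 and 0.06, and 0.04 between 3000 and 10000 bp. The same-sign share was 79.7%, 85.0%, 80.2% and 75.8%, and 70.3% between 3000 and 10000 bp. By position, 173 pairs lay in the same intergenic space (same sign in 84.4%, correlation of 0.15), 92 lay on both sides of a gene (78.3%, correlation of 0.24) and 78 had a midpoint inside a gene (75.6%, correlation of 0.20). No order of these groups was tested.

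**Figure D4:**
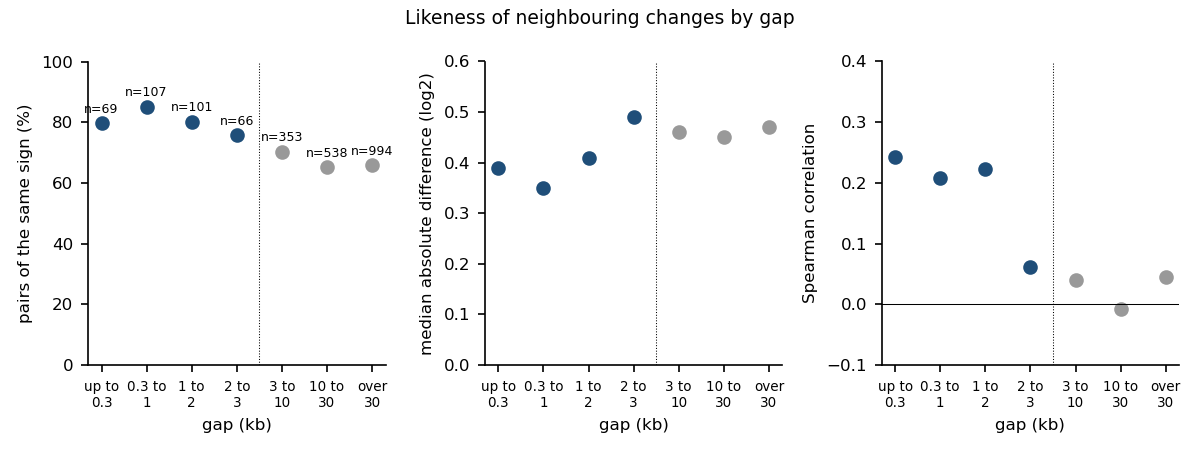
Share of neighbouring pairs with changes of the same sign (%), median absolute difference of their changes (log2) and Spearman correlation of their changes, by the gap between the peaks (kb). Blue points are pairs with a clustered peak beside a gene and grey points are pairs past the gap limit of 3000 bp; n is the number of pairs, and the median difference goes from 0.35 at gaps of 300 to 1000 bp to 0.49 at 2000 to 3000 bp.

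Stronger peaks differed less. In the 122 pairs in which both peaks had at least the median concentration of the table, the median difference was 0.285 and 89.3% had the same sign, against 0.39 and 69.0% in 462 distant pairs of the same strength. Relative to the median of all peaks the same-sign shares were 51.6% and 48.1%. The median implied SE of a single change was 0.476 for the clustered peaks, larger than the median difference between neighbours. Of 261 pairs in which both changes were at least 0.2 in size, 251 (96.2%) differed by at most 2 combined SE, taken as independent. The rest of the 343 pairs have no combined SE and are left out. They include pairs of a changed and a nearly unchanged peak, as at BTS (1.63 and -0.01), AT1G21920 (-1.38 and 0.01) and AT3G43660 (1.16 and -0.10). The share therefore does not cover such pairs. It was not computed for the distant pairs, whose median difference of 0.47 was also no larger than the SE of a single change. The share thus cannot tell whether neighbours are more alike than distant pairs.

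**Figure D5:**
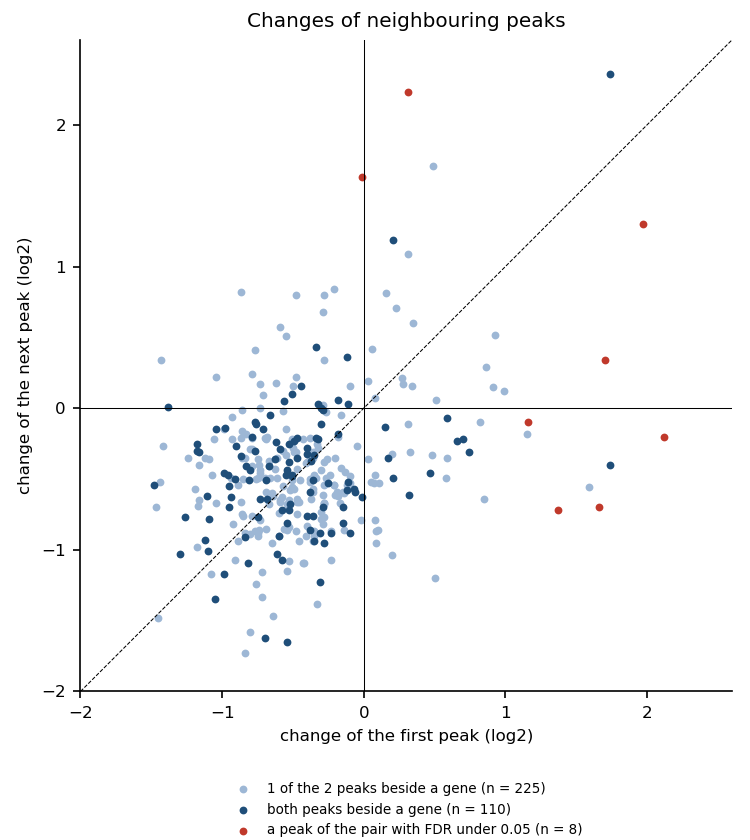
Each point is 1 of 343 neighbouring pairs, with the change of the first peak in chromosome order on the x axis and that of the next on the y axis (log2, deficiency minus sufficiency); the dashed line marks equal changes. Of these, 256 lie at the lower left, below 0 on both axes, and the 8 pairs with a called peak (red) lie at the right or upper edge, 5 of them with opposite signs. At BTS, AT3G43660 and bHLH100 the opposite sign comes from a neighbour near 0 (-0.01, -0.10 and -0.20).

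Of the 10 pairs beyond 2 combined SE, among the 261 that have one, 4 held a called peak, those at bHLH100, AT1G74780, AT3G08490 and OPT3. The other 6 were AT3G17770 with AT3G17780 (described above), AT2G39855 with AT2G39865 (changes 1.74 and -0.40 in the authors' deposited table), MCC1 with the heat shock factor gene HSFA1E (1.59 and -0.56), the first 2 peaks of UGT71C1 (-0.87 and 0.82), AT4G02090 with AT4G02100 (0.85 and -0.64) and the 2 peaks of AT5G59230 (0.50 and -1.20). Among the 122 pairs of stronger peaks, the 6 largest differences were those of OPT3 (2.36), BTS (1.64), AT4G02090 (1.49), AT1G21920 (1.39), AT3G08490 (1.36) and ATMPK13 with APX1 (1.16). At AT1G21920 the peaks on both sides of the gene had 19.3 and 7.41 reads (change -1.38, p = 0.00356, FDR 0.105) and 12.6 and 12.7 reads (change 0.01, p = 0.975) in the authors' deposited table.

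The 6 smallest differences, all at most 0.02, were between peaks that both had values below 0 without passing the FDR. Relative to the median of all peaks (-0.46), the pairs at HSFC1, AT5G57010 and RVE2 lay above it and the others below it. HSFC1, a heat shock factor gene, has a strong peak on each side, 69.6 and 53.8 reads at one and 42.2 and 32.7 at the other, with a change of -0.37 at both (FDR 0.379 and 0.416 in the authors' deposited table). The others were AT5G57010 (-0.18 at both), AT3G20340 (-0.51 at both), the ammonium transporter gene AMT1;1 (-0.67 and -0.68), RVE2 with AT5G37270 (-0.36 and -0.35) and DOX1 with AT3G01430 (-0.57 and -0.55) in the authors' deposited table.

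At the gap limit itself, the 10 peaks beside genes with the longest admitted gaps (2890 to 2995 bp) had changes from -0.91 to 0.16, with a median of -0.55. The 10 just outside it (3010 to 3260 bp) had changes from -1.31 to 0.54, with a median of -0.655.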

How the data were processed

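URI ChIP-seq and IgG control libraries of Arabidopsis roots were grouped by their titles. The submitters' processing notes name DiffBind, MACS2, bedtools 2.26.0, Picard 2.4.1, SAMtools 1.3.1, Bowtie 1.2.2 and Trimmomatic 0.33, and the TAIR10 build, but the settings, normalisation, pooling and use of IgG are not given here. The authors deposited 1 table of peaks with log2 concentrations, a log2 fold, a p-value and an FDR, whose test is not stated. The scales were read from the values: the mean concentration equals the log2 of the mean of both conditions within 0.0093. The deposited fold is sufficiency minus deficiency within 0.01 and was reversed. A Benjamini-Hochberg adjustment across 1311 peaks gave the deposited FDR within 0.489% and was 1 for 1055 peaks of at most 11.5 reads.

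Midpoints were placed against 27444 protein-coding genes (RefSeq, TAIR10.1, used for names and neighbourhood; no strand); all 58 list genes matched. Locus sums add reads over peaks. Named loci are those with an FDR under 0.05, with 3 or more peaks, the 8 with most reads, those near list genes, and the 6 largest and smallest differences among stronger pairs; loci with higher values throughout and pairs beyond 2 SE were chosen after their values were seen. The members and lists were chosen with earlier results of these data known. Pair statistics were tested on simulated data (Python 3.11.15, SciPy 1.17.1). No sequence or motif was analysed here.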

Additional observations from a re-analysis of the deposited data

How the results depend on the processing

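No paired analysis was possible because the deposited table gives 1 mean per Fe condition, and for the same reason no replicate could be left out. With a gap of 1000 bp there were 208 clustered peaks in 165 loci, 2 of them called higher, since fewer neighbours qualify. Requiring that no base of a peak touch a gene left 219 in 184 loci, 0 called higher and a median change of -0.54. Recentring on the median of all peaks gave a median of -0.03 with 53.5% lower, and a same-sign share of 51.9% for neighbours. Pairs of stronger peaks gave 89.3% and a median difference of 0.285. The 2 restrictions to loci without a called peak or a list gene were chosen after seeing the data. For 8 results, 60 of 72 alternatives were labelled as close to the reported value, by a limit that is not given here. That label also covers sizeable shifts. The 417 clustered peaks became 285 with a shorter allowed distance to a gene and 510 with a distance of 1500 bp. The 0 lower calls could not move at a stricter FDR. The count of 60 is therefore no measure of how firm the results are. The implied error limits every statement on neighbours, at strong peaks as at weak ones. Its median for 1 change was 0.476 over the clustered peaks, where neighbours differed by a median of 0.41. In the top quartile of concentration it was 0.373 for the clustered peaks, and 0.461 in the quartile below. The median difference of 0.285 was for pairs of stronger peaks. Those pairs take in both of these quartiles and neighbours that are not clustered peaks beside genes, so the sets differ. An error of 1 change and a difference of 2 changes are not the same measure.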
